A study of Homo sapiens with 45 samples.

Results

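HCC1395 is a triple-negative breast carcinoma cell line, one that lacks the estrogen and progesterone receptors and amplified HER2, and it is widely used as a reference for cancer genome sequencing. Its 3 RNA libraries, of 45 in the series, were set against 18 libraries of 6 other lines: HCC38, BT-549, MDA-MB-231, MDA-MB-157, MDA-MB-436 and Hs578T, with 3 libraries each. All 7 lines are counted as basal B in published classifications of breast cancer lines; that class is not in the labels. The series profiled 15 unmodified, untreated lines by sequencing total RNA after removal of ribosomal RNA. HCC1395, HCC38 and BT-549 grew in RPMI 1640 (BT-549 with 2 µg/mL insulin), Hs578T in DMEM, and the MDA-MB lines in L-15, MDA-MB-436 with 10 µg/mL insulin and 16 µg/mL glutathione; all media held 10% serum. Sequencing runs 3, 4 and 5 each held 1 library of HCC1395, MDA-MB-436, MDA-MB-157 and BT-549, while the other 3 comparators were in runs 1 and 2. Whether replicates were separate cultures is not stated, so p-values measure only the spread between these libraries, which may be technical, and each line stands for itself alone.

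Basal B lines resemble mesenchymal cells: they tend to make vimentin and extracellular matrix, and little E-cadherin or keratin. Germline genes, normally silent outside the testis and the early embryo, are kept off in most adult cells by promoter DNA methylation and can be switched on in tumours. LIN28B, an RNA-binding protein of early development, blocks the maturation of the let-7 microRNAs, which in turn repress LIN28B itself, the chromatin protein HMGA2 and the mRNA-binding protein IGF2BP1 through sites in the 3′ ends of their mRNAs. TXNIP, a glucose-responsive arrestin-like protein that restrains glucose uptake and binds thioredoxin, is switched on by the MondoA and ChREBP factors through paired promoter elements.

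Sequences are given here for some genes with large differences in HCC1395, picked because of the let-7 matches or promoter features named below. The let-7a microRNA (RefSeq) is shown with its seed, bases 2 to 8, in capitals. It is followed by the first match to the seed in the 3′ UTR of each of 3 genes (GENCODE 29, GRCh38, plus strand), with the match in capitals: LIN28B at chr6:105078812-105078833, HMGA2 at chr12:65963298-65963319 and IGF2BP1 at chr17:49051061-49051082. Each of these 3 UTRs held 4 such matches.
hsa-let-7a-5p: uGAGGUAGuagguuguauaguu
LIN28B: acccggttgcaaagtCTACCTC
HMGA2: gccaacgttcgatttCTACCTC
IGF2BP1: tgtgtgcgaagtaaaCTACCTC

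Promoter stretches (RefSeq, GRCh38.p14) are shown for 3 of the 12 genes with the widest gaps above the other lines and for 3 of the 12 with the widest gaps below, picked for the features shown. The TXNIP stretch (chr1:145996636-145996682, minus strand) has both parts of the paired motif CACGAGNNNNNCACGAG in capitals. Searched on both strands, that motif lay in 2 of 35116 promoter windows of 300 bases (0.0057%), and 1 of the 2 TXNIP windows was among them. The letters searched are exactly those of the TXNIP stretch, so a match there follows from the choice. Other forms of paired elements were not searched, and the share says nothing of how common they are. DPEP3 (chr16:67980696-67980741, minus strand), GAGE2A (chrX:49589499-49589544, plus strand) and TDRD12 (chr19:32719722-32719767, plus strand) are shown with the palindrome CACGTG in capitals, which 7.26% of windows held. The last line is the 126 bases between the start sites of COL4A1 and COL4A2, which face away from each other (chr13:110307158-110307283, plus strand), with each CG in capitals; it holds 20 of them.
TXNIP: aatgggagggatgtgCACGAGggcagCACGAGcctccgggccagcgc
DPEP3: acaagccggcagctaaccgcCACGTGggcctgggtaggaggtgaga
GAGE2A: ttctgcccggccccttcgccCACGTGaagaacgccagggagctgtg
TDRD12: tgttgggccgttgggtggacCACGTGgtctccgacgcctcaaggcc
COL4A1 and COL4A2: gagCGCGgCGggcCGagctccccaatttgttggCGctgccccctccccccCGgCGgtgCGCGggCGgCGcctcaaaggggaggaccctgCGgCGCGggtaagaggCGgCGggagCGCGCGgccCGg

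By gene, CACGTG lay in a promoter window of 11.8% of the tested protein-coding genes, of 14.8% of those whose 3 HCC1395 libraries were all above the others, and of 8.59% of those all below. It lay in 4 of the 10 matched genes with the widest gaps above (DPEP3, GAGE2A, LIN28B and TDRD12), and in 8 of 44 cancer testis genes, tested or not. Of those 8, GAGE1, GAGE2A and PAGE2B were higher in HCC1395, BRDT and PAGE5 were lower, and GAGE10, GAGE12J and PAGE1 were not tested. These shares describe letters in a window and carry no test.

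The HCC1395 libraries held 6263573, 8578313 and 10206100 counts, and the 18 others 2312138 to 10180173 (median 5964147). Fewer genes had a count in HCC1395, 28872 to 31203 against 31230 to 40272, and a smaller share of counts came from the mitochondrial genome, 0.0507% to 0.0923% against 0.0669% to 0.782% (median 0.245%). On the first principal component (20.6% of variance) HCC1395 lay at -109, -127.9 and -131.9 and all others between -42.96 and 90.36, where the highest was Hs578T replicate 2, which had the fewest counts. Its correlation of mean log2 CPM (counts scaled to TMM-adjusted library size) with each other line, across genes, was 0.843 to 0.881.

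HCC1395 had vimentin and little E-cadherin, but not all genes of the mesenchymal list. Vimentin (VIM), the intermediate filament of mesenchymal cells, was at 2739, 3237 and 3085 CPM; across the 18 other libraries the lowest, median and highest were 330.5, 1904 and 4846 CPM, an order used for all such trios that follow. The ranges overlapped, and VIM was not called (log2 fold change 0.67 ± 0.17 SE), though it was against the RPMI 1640 lines alone (1.28). E-cadherin (CDH1) was at 0.632, 0.251 and 0.429 CPM against 0.191, 1.53 and 297. The labels name the cells of every line epithelial. HCC38 alone had much CDH1, at a mean of 271 CPM, and the other 5 comparators lay at means of 1.13 to 1.6. CDH1 was called lower, and it was 1 of 16 lower among the 25 epithelial adhesion and keratin genes; AP1M2 was higher. HCC38 bears on that count: 9 were lower without it. Summed over its 25 genes the list reached 332 to 339 CPM in HCC1395 against 103 to 7749, and its median was -5.96 against HCC38 but -0.08 to -1.33 against each of the others. Of 22 mesenchymal genes tested, 4 were higher (PRRX1, MME, NT5E and TPM2) and 9 lower, 6 of them below every other library, among them the cadherin CDH11, the transcription factor SNAI2, the surface protease FAP, and TAGLN. ZEB1, a repressor of E-cadherin, was at 84.9, 113 and 119 CPM against 5.54, 86 and 198 and was not called. Its difference of 0.63 was -0.08 without HCC38 and 1.60, a call, against the RPMI 1640 lines.

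Markers of other cells were scarce. Summed over 12 genes, B lymphocyte markers reached 2.14 to 3 CPM in HCC1395 against 3.42 to 24, and 3 of the 12 had no count in HCC1395. Other blood cell markers reached 5.53 to 7.74 against 3.7 to 40.5 CPM, also with 3 of 12 at no count. Endothelial markers reached 7.16 to 9.8 against 4.71 to 42.6, and fibroblast markers 6.03 to 9.96 against 17.2 to 3245 CPM, highest in Hs578T and MDA-MB-157. In these lists the members called lower were CD79B, CR2 and MS4A1 of 5 B lymphocyte genes tested, CD14, CSF1R and PTPRC of 4 blood genes, PECAM1, KDR and VWF of 7 endothelial genes, and 8 of 9 fibroblast genes; ITGAM, ERG and MFAP5 were higher. The 3 B lymphocyte calls rest on traces: without HCC1395 replicate 2 none was called, and without replicate 3 only 1. CD79B had no count in HCC1395, while HCC38 held 2.64 CPM. It was not called without Hs578T replicate 2 either. PTPRC lost its call without HCC1395 replicate 3 (-1.11), and VWF without replicate 2 (-1.25) or replicate 3 (-1.53).

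Against the mean of the 6 lines, with each line weighted equally on the log2 scale, 2690 of 18272 tested genes were higher in HCC1395 (14.7%) and 3537 were lower (19.4%), together 34.1%. Gene lists with a share called near or below 34.1% included integrated stress response (35.3%), chromatin (33.3%) and cholesterol and fatty acid synthesis (32.1%). The glutamine and serine list (22.2%), the BCL2 family (18.8%) and the TCA cycle (16.1%) lay lower. A gene counts as called at an adjusted p under 0.05 and a log2 fold change of at least 1 in size; all adjusted p-values come from edgeR's quasi-likelihood test with Benjamini-Hochberg adjustment over the 18272 genes. In 1017 genes (5.57%) the call was higher and all 3 HCC1395 libraries lay above all 18 others, and in 866 (4.74%) the call was lower and all 3 lay below, together 10.3%. Without HCC1395 replicate 1, the library with the fewest counts of the 3, the number below became 1489. Of the 1017 genes above, 503 (49.5%) also lay above every library of the 8 lines outside basal B, and of the 866 below, 188 (21.7%) also lay below them. How many of all tested genes lie above or below those 8 lines was not counted, so these shares have no background beside them.

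These p-values use the spread between replicates of a line. With the line as the unit, so that the single HCC1395 line was set against the spread among 6 lines and assumed to vary as they do, 29 genes were higher and 4 lower (1522 genes had an unadjusted p under 0.05). The 29 included DPEP3, LIN28B, PASD1, FAM9C, TDRD9, RHOXF2B, CLEC11A, GAGE2A and CCDC36, which are 9 of the 12 widest gaps above. The 4 lower were HIST1H3C, SLFN12, UBE2E1 and AC060766.7. Lower calls were concentrated among genes at low levels: 33.3% of genes with a mean of 1 to 3 CPM were lower and 15% higher, while 8.1% and 8.41% of genes at or above 100 CPM were. HCC1395 also had fewer genes with a count, as above, and the part of that in the lower calls was not tested.

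**Figure D1:**
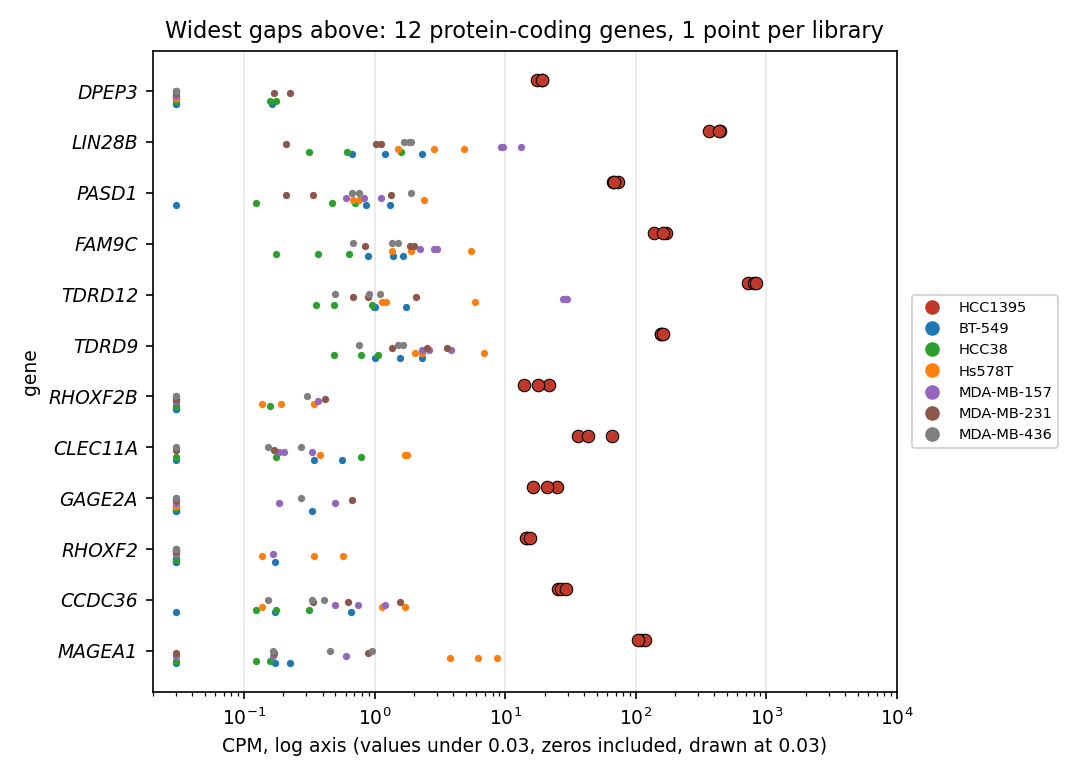
The 12 protein-coding genes with the widest gap between the lowest HCC1395 library and the highest of the 18 others, 1 point per library, on a log axis of CPM; values under 0.03 are drawn at 0.03. All HCC1395 points (red, 3 per gene) lie to the right of every other point, at 13.8 CPM (RHOXF2B) to 830.1 CPM (TDRD12).

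Genes of the germline and the early embryo led the genes higher in HCC1395. The widest gap belonged to DPEP3, a dipeptidase of the testis, at 19, 17.6 and 19.2 CPM against 0, 0 and 0.224; the median library had no read of it, so no fold is given (adjusted p = 9e-14). No line outside basal B had a mean above 0.152 CPM. TDRD12, a Tudor-domain protein of the piRNA pathway that silences transposons in germ cells, was at 721, 805 and 830.1 CPM against 0.354, 1.05 and 29.8 (log2 fold change 8.67 ± 0.15, adjusted p = 8.7e-24). The comparator nearest to it was MDA-MB-157, at a mean of 28.9 CPM, and outside basal B it stood at 389.5 CPM in BT-20. A related gene, TDRD9, was at 155, 156 and 162 CPM against 0.493, 1.85 and 6.86, a log2 difference of 6.44 ± 0.15. FAM9C, a gene on X expressed in the testis, was at 139, 171 and 161 CPM against 0.177, 1.44 and 5.49. CCDC36, known for its part in meiotic recombination, was at 25.3, 26.9 and 29.2 CPM against 0, 0.374 and 1.71. These 5 genes were picked for their wide gaps, so the distance of every comparator library from HCC1395 follows from the choice.

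Several cancer testis antigens, proteins of the male germline that tumours can express, were part of this group. PASD1 was at 67.3, 73.1 and 68.5 CPM against 0, 0.733 and 2.4 (log2 fold change 6.52 ± 0.23, adjusted p = 1.4e-17). BT-20, outside basal B, reached 71.5 CPM of it. MAGEA1 was at 109, 118 and 104 CPM against 0, 0.171 and 8.58, with Hs578T the highest comparator. MAGEA4 had the largest fitted difference of the list, with 862, 1037 and 1030 CPM in HCC1395. MDA-MB-436 had nearly as much, at a mean of 940.2 CPM, so the groups overlapped, and the other 5 lines lay at 0.059 to 0.645 CPM. GAGE2A was at 24.8, 16.3 and 21 CPM against 0, 0 and 0.672. RHOXF2 and RHOXF2B, a pair of near-identical homeobox genes on X, were at 14.7, 14.4 and 15.5 and at 21.5, 18 and 13.8 CPM, against at most 0.572 CPM in any other library. Reads of RHOXF2, GAGE and MAGEA genes can match several copies, so their split between copies is uncertain. Of 52 cancer testis genes listed, 15 were higher, 6 lower, 6 tested and not called, and 25 not tested, 15 of these for lack of reads in any of the 21 libraries. The 15 higher genes compare with 14.7% of all tested genes called higher. Genes pass the filter on low counts more easily where 1 line is high. The 6 lower were CT83, SAGE1, PAGE5, BRDT, SYCP1 and DDX53. Against single lines, the median of the list was 1.59 to 2.49, except against MDA-MB-436, where it was 0.34. CTCFL, a testis paralog of the chromatin factor CTCF, was at 31.6, 33.3 and 35.7 CPM against 0.449, 1.14 and 4.12.

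CLEC11A, a growth factor for blood and bone cells, is not a germline gene but had 1 of the widest gaps, at 65.3, 35.9 and 42.8 CPM against 0, 0.194 and 1.78.

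LIN28B, HMGA2 and IGF2BP1 were all higher in HCC1395. LIN28B was at 362, 444 and 432 CPM against 0.209, 1.63 and 13.1 (log2 fold change 7.77 ± 0.15, adjusted p = 5.8e-23). The highest comparator was MDA-MB-157 at a mean of 10.7 CPM, and the highest line outside basal B was HCC1806 at 46.2 CPM. HMGA2, an architectural chromatin protein of embryonic and mesenchymal cells, was at 554, 786 and 778 CPM against 5.64, 34.4 and 78.9 (4.67 ± 0.12, adjusted p = 1.2e-20). IGF2BP1, which stabilises mRNAs in fetal tissue, was at 109, 128 and 127 CPM against 0, 1.32 and 27 (5.99 ± 0.20, adjusted p = 4.5e-18), with MDA-MB-436 the nearest line. Its paralog IGF2BP3 was at 104, 115 and 118 CPM against 47.3, 92.5 and 301 and was not called (0.17 ± 0.15). HMGA2, IGF2BP1 and IGF2BP3 were chosen after their values were seen.

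Mature microRNAs were not analysed here, so the genes with let-7 matches in their 3′ UTR were counted instead. Of 12767 tested genes with no match, 13.3% were higher and the median log2 difference was 0.06. The values were 14.5% and 0.07 for 1233 genes with 1 match, and 16.2% and 0.09 for 130 genes with 2. Of 27 genes with 3 or more, 7 were higher (LIMD2, RAB15, HMGA2, IGF2BP1, LIN28B, ZNF512B and ZNF891), 3 were lower and the median was 0.36. LIN28B, HMGA2 and IGF2BP1 had prompted the count, and without them 4 of 24 were higher (16.7%), near the share with 2 matches, with a median of 0.24. Genes with more matches had longer 3′ UTRs, a median of 6206 bases in the last group against 1022 with no match.

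HOX genes, the homeobox factors that give cells their position along the body axis, were mostly higher. Of 30 tested, 21 were higher and 2 (HOXC12 and HOXC11) lower, where 14.7% and 19.4% of all tested genes were. Above every other library lay 10 of them, against 5.57% of all tested genes. Another 9 of the 39 listed were not tested, and genes pass the filter on low counts more easily where 1 line is high. HOXB4 was at 36.2, 32.9 and 33.2 CPM against 0, 2.2 and 14 (4.76 ± 0.19), and HOXB7 at 68.3, 58.9 and 58.3 against 0, 1.64 and 36.8 (4.42 ± 0.15). HOXB2 was at 27.2, 40.2 and 35.9 CPM against 0, 0.694 and 14.7. In all 3, BT-549 and HCC38 were the nearest lines. HOXD9 was at 2.84, 2.89 and 3.54 CPM against 0, 0.0561 and 1.11. The median of the list was 1.0 against HCC38 and 3.15 against MDA-MB-231, with the other lines between.

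**Figure D2:**
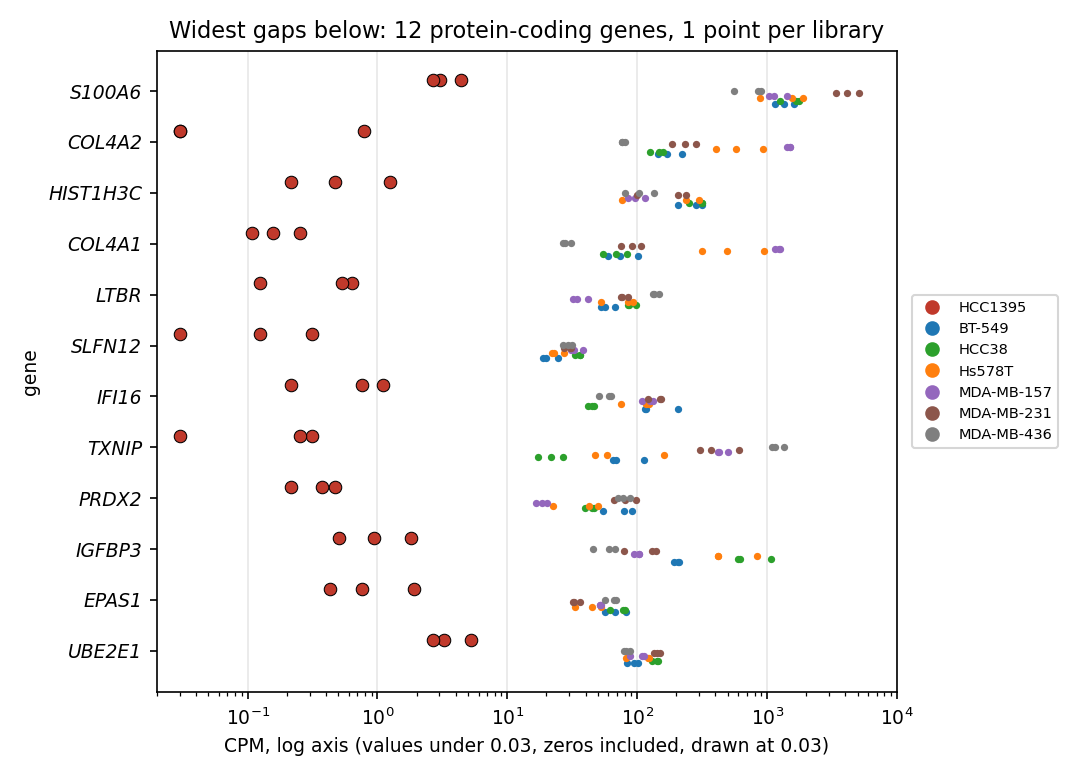
The 12 protein-coding genes with the widest gap between the highest HCC1395 library and the lowest of the 18 others, 1 point per library, on a log axis of CPM; values under 0.03 are drawn at 0.03. The HCC1395 points (red) lie at 5.21 CPM (UBE2E1) or less, to the left of every other point.

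The genes furthest below the other lines were of several kinds. S100A6, a calcium-binding protein abundant in mesenchymal and epithelial cells, was at 4.42, 3.02 and 2.68 CPM against 555, 1378 and 5063 (log2 fold change -8.82 ± 0.34, adjusted p = 6.7e-17). All 6 comparators made it in quantity, the least in MDA-MB-436 at a mean of 764 CPM, while HCC1187, outside basal B, had 0.883 CPM. Of 12 S100 genes tested, S100A16, S100A4 and S100A3 were also lower, and S100A9 was higher. S100A3, at -2.21, was 0.58 against the RPMI 1640 lines alone and lost its call without HCC38 replicate 2 (-1.78). UBE2E1, a ubiquitin-conjugating enzyme, was at 5.21, 3.27 and 2.68 CPM against 78.7, 111 and 149 (-4.91 ± 0.19, adjusted p = 1.1e-16). PRDX2, a peroxiredoxin that removes peroxide, was at 0.474, 0.377 and 0.214 CPM against 16.7, 52.2 and 98.4 (adjusted p = 6.2e-15). In bulk RNA, fewer expressing cells and less RNA per cell cannot be told apart.

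Matrix genes gave the most lower calls of any list. COL4A1 and COL4A2, the paired genes of basement membrane collagen, had 4 and 5 counts in all of HCC1395. COL4A1 was at 0.158, 0.251 and 0.107 CPM against 26.7, 86.9 and 1255, and COL4A2 at 0.79, 0 and 0 against 75.8, 203 and 1506. Their fitted log2 differences were -9.60 ± 0.47 and -10.21 ± 0.45; COL4A2 moved to -13.75 without HCC1395 replicate 1 and to -9.53 without replicate 3. Both were low in HCC70, outside basal B, at 0.232 and 0.628 CPM. The pair overlap in the annotation, and the strand setting of the counting is not given. Of 35 collagen and matrix genes tested, 27 were lower and 2 (MFAP5 and LOXL1) higher, against 19.4% and 14.7% of all genes, and 11 lay below every other library. IGFBP7, a secreted matrix protein, was at 1.42, 0.377 and 0.322 CPM against 8.59, 213 and 1046. COL5A1, a fibrillar collagen, was at 1.11, 0.126 and 0.429 CPM against 6.41, 48.5 and 489.7. Fibronectin (FN1) was lower but present, at 50.9, 55.4 and 70.6 CPM against 123, 311 and 5548 (-3.04 ± 0.29, adjusted p = 2.1e-09). Hs578T and MDA-MB-157 were the richest comparators: the median of the list was -5.30 and -3.71 against those lines and -1.11 to -1.54 against the other 4.

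Enzymes that cut the matrix followed. Of 26 matrix proteases and inhibitors tested, 17 were lower and 2 (MMP16 and PLAUR) higher. MMP3 had no count in HCC1395 against 0.337, 1.79 and 74.6 CPM, and the metalloprotease ADAM12 was at 0, 0.503 and 0.214 CPM against 1.87, 14.8 and 177. ADAMTS12 was at 1.58, 0.377 and 0.214 CPM against 2.34, 22.6 and 115. TIMP3, an inhibitor of these proteases, was at 0.316, 0 and 0 CPM against 0.152, 15.8 and 837, and it overlapped with MDA-MB-436, which had a mean of 0.48. Of 19 integrins, the receptors for matrix, 8 were lower, led by ITGA8, ITGA11, ITGA9 and ITGB3, and 2 were higher (ITGA6 and ITGA4); 5 were lower against the RPMI 1640 lines alone, where ITGA11 (-0.42) and ITGB3 (-0.18) were not called.

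Many receptors and ligands of growth factor signalling were lower. Of 29 receptor tyrosine kinases tested, 15 were lower and 3 (MERTK, FLT4 and INSR) higher, with a median of -1.19, and the median against single lines ran only from -0.93 to -1.26. DDR2, a collagen receptor, was at 2.84, 3.64 and 2.68 CPM against 6.45, 129.8 and 382 (-4.87 ± 0.28, adjusted p = 2.3e-13). EPHA4, an ephrin receptor, was at 2.53, 0.754 and 1.07 CPM against 3.52, 26.6 and 89.6. EGFR, the receptor often raised in basal tumours, was at 39, 37.8 and 43 CPM against 27.2, 112 and 179.9 (-1.19 ± 0.11). Only MDA-MB-157, at a mean of 29.2 CPM, was lower. AXL, a kinase of mesenchymal cells, was at 316, 305 and 306 CPM against 73.3, 159.9 and 560.1 and was not called (0.76 ± 0.16); without MDA-MB-231 it was (1.05). Of 29 ligands and binding proteins tested, 16 were lower, 9 of them below every other library, and TGFA, FGF5, PDGFB and PDGFD were higher. IGFBP3, which binds insulin-like growth factors, was at 0.948, 0.503 and 1.82 CPM against 45.5, 165 and 1063. EREG, an EGFR ligand, was at 0.316, 0.251 and 0.107 CPM against 0.337, 26.8 and 682, so that the nearest library was at almost the same level, and AREG, another, was at 0.632, 0 and 0.322 CPM against 0.673, 2.71 and 349. Of 29 TGF-beta and BMP pathway genes, 3 were higher (NOG, TGFBR3 and TGFB1) and 13 lower, led by INHBA at 1.26, 0.251 and 0.857 CPM against 5.04, 19.1 and 313. Of 29 Wnt and Notch pathway genes, 5 were higher and 8 lower (44.8% called), among them WNT5A at 0.948, 1.38 and 0.536 CPM against 1.04, 22.3 and 426. Both of these medians crossed 0 between lines, from -0.67 to 0.51 and from -1.10 to 0.35. Of 18 YAP and TEAD target genes 3 were higher and 3 lower, and the 33.3% called was near the 34.1% of all tested genes. TEAD4 was at 32.9, 30 and 28 CPM against 2.82, 11 and 37.1, and was not called against the RPMI 1640 lines (0.83).

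Many basal and luminal epithelial genes were lower, but the summed level of the basal list was not. Of 21 basal keratinocyte genes tested, 14 were lower and 2 (ITGA6 and KRT15) higher, but 6 were lower against the 3 lines of the same runs, which do not include HCC38. Summed over 22 genes, the basal list reached 701 to 836 CPM in HCC1395 against 278, 690.4 and 3389. KRT5, the basal keratin, was at 1.42, 0.126 and 1.39 CPM against 0, 1.02 and 33 and was not called. Of 17 luminal and hormone receptor genes tested, 11 were lower, FOXA1 was higher, and 5 lay below every other library. MLPH, a melanophilin of luminal cells, was at 0.316, 1.38 and 0.322 CPM against 8.51, 32.4 and 92. The estrogen receptor gene ESR1 was at traces everywhere, 2.21, 0.879 and 0.429 CPM against 1.06, 2.28 and 7.54, and its call (-1.26) was lost without HCC1395 replicate 2 (-1.11) or replicate 3 (-0.83). Summed over 18 genes, the luminal list reached 85.5 to 97 CPM in HCC1395 and 229.8 to 706 in the others, with no overlap.

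**Figure D3:**
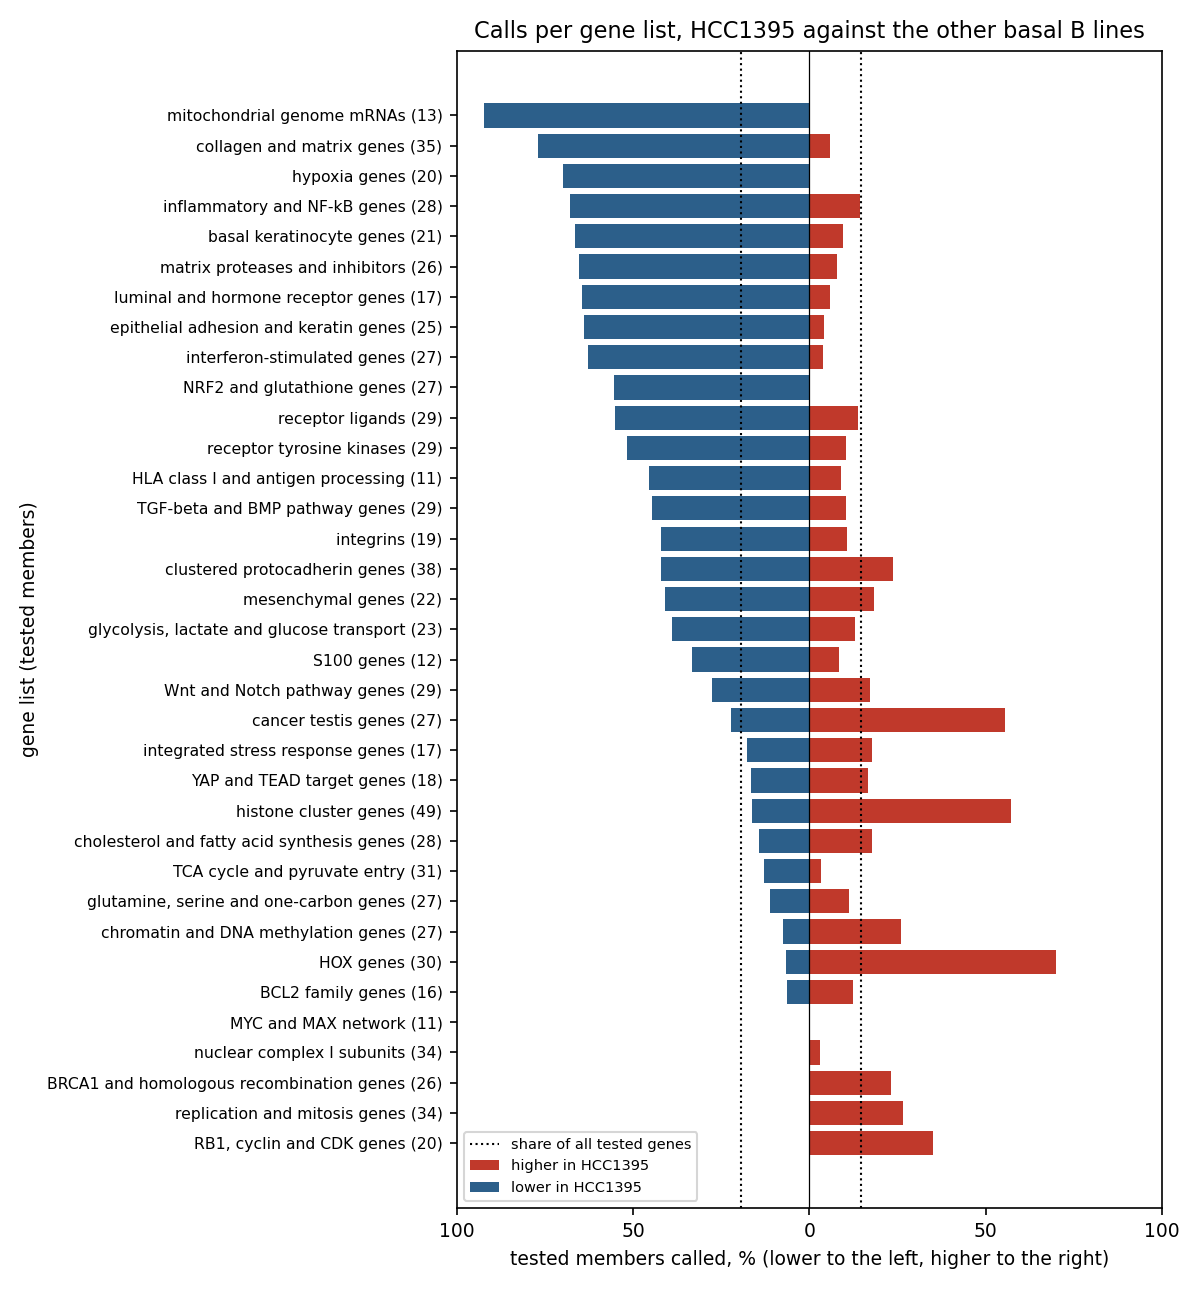
Share of tested members called in each gene list with at least 10 tested members (number in brackets), lower to the left and higher to the right; dotted lines mark the shares over all tested genes, 19.4% and 14.7%. Matrix, hypoxia and mitochondrial genome lists reach furthest left, and HOX, histone and cancer testis lists furthest right.

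Innate immune and inflammatory genes were low. IFI16, a sensor of DNA, was at 1.11, 0.754 and 0.214 CPM against 41.4, 116 and 205 (adjusted p = 1.2e-15). LTBR, the lymphotoxin receptor that feeds the non-canonical NF-kB pathway, was at 0.632, 0.126 and 0.536 CPM against 32.2, 80.5 and 146 (-7.37 ± 0.27, adjusted p = 3.7e-17). Both genes were picked for their wide gaps below the 18 other libraries, so the lack of overlap follows from the choice. Of 27 interferon-stimulated genes tested, 17 were lower, 9 of these below every other library, and 1 (IFITM2) was higher. RSAD2, an antiviral enzyme, was at 0, 0.126 and 0.322 CPM against 0.953, 6.67 and 152, and OAS2, a sensor of double-stranded RNA, at 0.158, 0.126 and 0.107 against 0.834, 6.45 and 192. The list median was -3.50 against BT-549 and -0.31 against Hs578T, so the size of the difference depends on the line.

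Of 28 inflammatory and NF-kB genes tested, 19 were lower and 4 higher; against the RPMI 1640 lines alone 12 were lower and 5 higher. CXCL8, the neutrophil chemokine, was at 0, 0.377 and 0.107 CPM against 4.82, 109.9 and 1629 (adjusted p = 2.3e-10). IL6 had no count in HCC1395 against 0.316, 5.06 and 48.2 CPM. The 4 higher genes were CXCL2, the apoptosis inhibitor BIRC3, and NFKB2 and RELB, which encode the subunits of non-canonical NF-kB.

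The entry of B2M, the light chain of HLA class I, held few reads, at 1.58, 0.251 and 0.75 CPM (19 counts in all) against 0.185, 281 and 420.0. The counts also hold 6165 identifiers without a GENCODE match. Whether any of them took B2M reads was not tested, so the level of B2M and its call as lower are uncertain. The low comparator was MDA-MB-157, at a mean of 0.295, and the other 5 lines lay at 168 to 398 CPM. Of 11 HLA class I and antigen processing genes tested, 5 were lower, among them B2M, ERAP2, NLRC5 and PSMB10, and HLA-B was higher; 6 of the 18 listed had almost no reads in any library. NLRC5, an activator of class I genes, was at 2.37, 1.63 and 0.965 CPM against 6.86, 10.7 and 22.4 (-2.85 ± 0.31). HLA genes vary between people and resemble each other, and how multi-mapping reads were treated is not given, so HLA levels are uncertain. Of 6 class II genes tested, CTSS and CD74 were lower and HLA-DRB1 was higher. CD74, the invariant chain, was at 0.158, 0 and 0.214 CPM against 0, 1.04 and 40.8, and it was not called without MDA-MB-231 (-2.28) or against the lines of the same runs (-1.93). HLA-DRB1 was at traces, 0.316, 0.503 and 0.643 CPM against 0, 0 and 7.08. HCC38 had far more of it, at a mean of 6.27 CPM, and HLA-DRB1 was not called against the RPMI 1640 lines (0.65). CIITA, the class II activator, was at 1.58, 2.14 and 0.857 CPM against 1.1, 2.84 and 5.83, just short of the fold limit at -0.99; with sequencing run as a replicate block it was -1.01 and called.

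TXNIP had 4 counts in HCC1395, at 0.316, 0.251 and 0 CPM against 17.1, 233 and 1358 (-9.91 ± 0.59, adjusted p = 3.1e-13; -9.25 without HCC1395 replicate 3). All 6 comparators had it, from a mean of 21.9 CPM in HCC38 to 1198 in MDA-MB-436, and outside basal B it was as low as 0.72 CPM in MDA-MB-468. ARRDC4, its paralog and a target of the same factors, was at 4.11, 4.9 and 3.54 CPM against 0.66, 12.8 and 144. It was called lower (-1.69 ± 0.20), but was 0.56 higher on the log2 scale against the RPMI 1640 lines, BT-549 having 0.732 CPM. Of the lines grown in RPMI 1640 like HCC1395, BT-549 had a mean of 82.5 CPM of TXNIP; the part of the medium was not tested. The other 6 genes of the glucose-sensing and arrestin-domain list, the factors MLXIP, MLXIPL and MLX among them, were not called.

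Glycolysis was mixed. Of 23 genes tested, 3 were higher (SLC2A3, LDHB and GAPDH), 9 lower, and the median was -0.10. LDHB, the lactate dehydrogenase subunit that favours lactate use, was at 2027, 2216 and 2181 CPM against 145, 1241 and 1741 (1.27 ± 0.12, adjusted p = 3.6e-09). Every HCC1395 library was above every other one, with MDA-MB-157 far below the rest at 159.6 CPM; without that line the difference was 0.78 and not called, nor was it against the RPMI 1640 lines (0.61). Its partner LDHA was at 643, 659.8 and 710.3 CPM against 418, 1008 and 2716 and was not called (-0.60 ± 0.20). HK1, the housekeeping hexokinase, was at 87.9, 74 and 85.7 CPM against 252, 465 and 902 (-2.42 ± 0.14, adjusted p = 1.3e-13). The entry of the lactate transporter SLC16A1 had almost no reads in any of the 21 libraries and was not tested. Lines outside basal B were as low, at a mean of at most 0.117 CPM (HCC1143). Whether its reads were counted under another identifier was not tested, so the transcript cannot be called absent. SLC16A7, another lactate transporter, was at 1.74, 0.879 and 0.643 CPM against 1.68, 32.6 and 72.6.

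Hypoxia genes, switched on by HIF factors at low oxygen, were lower in 14 of 20 and higher in none, and 9 lay below every other library. EPAS1, which encodes HIF-2 alpha, was at 1.9, 0.754 and 0.429 CPM against 32.3, 54.6 and 81.3 (adjusted p = 1.4e-15). NDRG1, a stress-induced growth regulator, was at 3, 2.76 and 2.89 CPM against 10.2, 146 and 442 (-4.80 ± 0.28). CA9, the carbonic anhydrase used as a hypoxia marker, had 2 counts in HCC1395 against 0.79, 4.6 and 68.1 CPM. The list median against single lines ran from -0.71 (MDA-MB-436) to -2.47 (Hs578T and MDA-MB-231). HIF1A was among the 6 not called.

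Antioxidant genes showed the same direction. Of 27 NRF2 and glutathione genes tested, 15 were lower and none higher. GPX1, glutathione peroxidase, was at 0.158, 0.503 and 0.322 CPM against 18.2, 120.3 and 259 (-7.93 ± 0.33, adjusted p = 2.8e-16). GENCODE 29 lists it as a polymorphic pseudogene, which kept it out of the ranking of protein-coding gaps, and it was singled out after its values were seen. AKR1C1, an aldo-keto reductase induced by NRF2, was at 1.74, 1.38 and 1.82 CPM against 5.28, 106 and 650.3 (-6.00 ± 0.47). SLC7A11, the cystine transporter, was at 50.2, 80.2 and 74.8 CPM against 46.3, 481 and 1353 (-2.23 ± 0.24), and overlapped with BT-549 and MDA-MB-157. NFE2L2, the gene of NRF2, and its inhibitor KEAP1 were not called. The median was -0.07 against MDA-MB-157, -0.36 against BT-549 and -0.91 to -1.74 against the other 4. Of 7 metallothionein genes tested, MT1E was lower, at 0.316, 0 and 0 CPM against 1.67, 30.8 and 124.

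**Figure D4:**
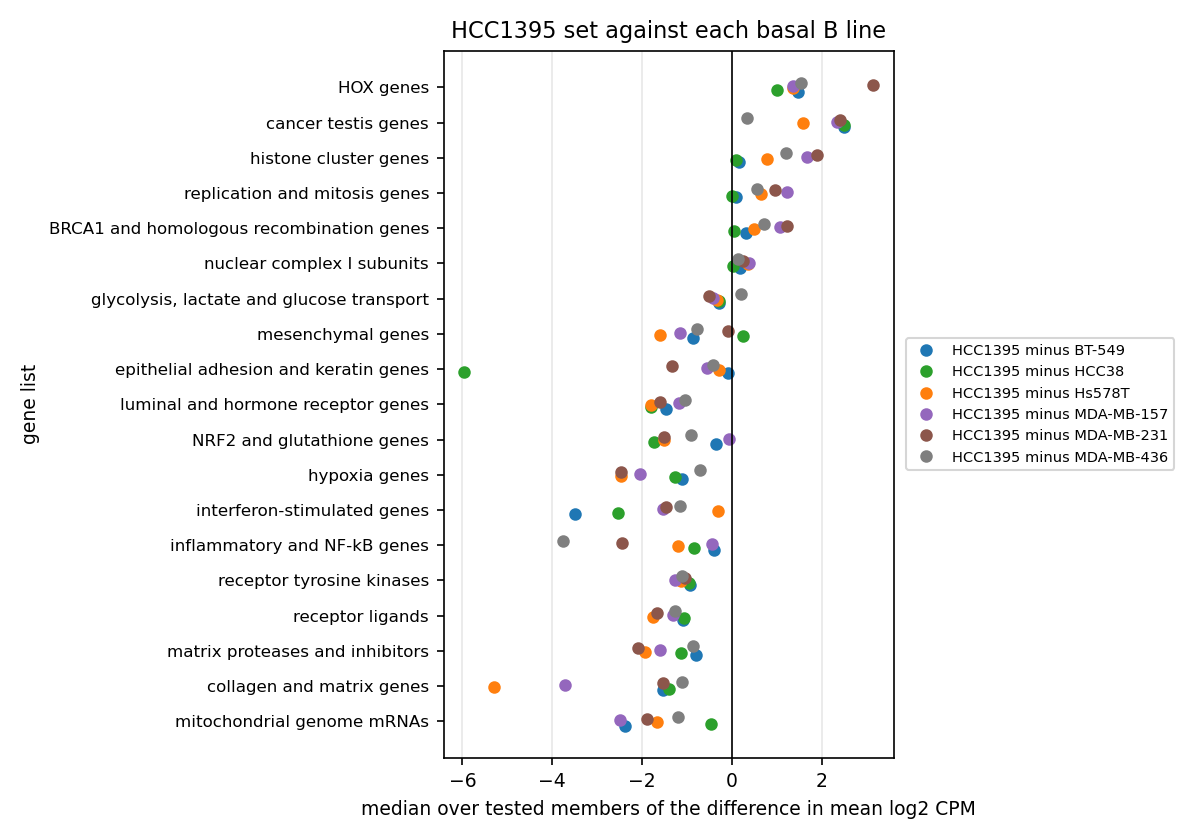
Median over the tested members of a list of the difference in mean log2 CPM between HCC1395 and each of the 6 other lines, 1 point per line. All 6 points lie right of 0 for HOX and cancer testis genes and left of 0 for matrix, ligand, receptor and hypoxia genes; the epithelial list has its outlying point, -5.96, at HCC38.

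In the mitochondria, transcripts from the organelle's own genome were low and those from the nucleus were not. Of 13 mitochondrial genome mRNAs, 12 were lower, with MT-CO3 not called and a median of -1.78. Only 1 of the 13 lay below every other library. The list median was -0.46 against HCC38 and -1.19 to -2.50 against each of the other lines. MT-ND4, a subunit of complex I, was at 111, 53.6 and 33.9 CPM against 77.7, 305 and 842 (-2.22 ± 0.49, adjusted p = 0.0004; -2.82 without HCC1395 replicate 1), and overlapped with the lowest other libraries. The list moves with the mitochondrial share of each library, given above, and with Hs578T replicate 2, which had the highest share; the part of sample preparation was not tested. Of 34 nuclear complex I subunits tested, only NDUFA12 was called, higher at 181, 196 and 202 CPM against 47.8, 96.7 and 186, and the list median was 0.30. The call of NDUFA12 (1.07 ± 0.09) was lost with the size factors of DESeq2 (0.98), without MDA-MB-157 (0.89) or MDA-MB-436 (0.95), and against the RPMI 1640 lines (0.75). Of 31 genes of the TCA cycle and pyruvate entry, PDK2 was higher and PDK4, PC, IDH2 and PDK1 lower. PDK2, which restrains pyruvate entry, was at 16.3, 12.7 and 13.9 CPM against 2.13, 3.77 and 12.1, while its paralog PDK4 was at 1.11, 1.63 and 1.39 against 1.85, 8.66 and 122; PDK4 was not called against the RPMI 1640 lines (-0.95). Of 27 glutamine, serine and one-carbon genes, ASNS, PSAT1 and MTHFD1 were higher and 3, among them SLC7A11 and SLC3A2, lower; SLC3A2 was not called without Hs578T (-0.96). ASNS, asparagine synthetase, was at 4.74, 3.89 and 5.57 CPM against 0.316, 1.83 and 3.7 (1.44 ± 0.27). Of 28 cholesterol and fatty acid genes, 5 were higher and 4 lower. SREBF1, the regulator of fatty acid synthesis, was at 108, 92.8 and 90.7 CPM against 5.49, 13.8 and 68.7 (2.65 ± 0.13, adjusted p = 7.1e-15). SCD, the desaturase it controls, was at 1109, 1062 and 1301 CPM against 107, 199 and 1823, with BT-549 alone at a similar mean of 1219.

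Genes of the cell cycle were higher where they were called at all. Of 34 replication and mitosis genes, 9 were higher and none lower, but against the RPMI 1640 lines 3 were, and the list median of 0.60 became 0.07. The 26.5% called lay below the 34.1% of all tested genes called, of which 14.7% were higher and 19.4% lower. Against HCC38 and BT-549 singly the median was 0.01 and 0.09. MCM7, a subunit of the replicative helicase, was at 1163, 985 and 1007 CPM against 161, 295 and 445 (1.95 ± 0.13, adjusted p = 2.2e-12), above every other library. TYMS, thymidylate synthase, was at 133, 154 and 158 CPM against 11.3, 41.7 and 57 (2.02 ± 0.17). CDK6, the G1 kinase, was at 505, 533 and 594 CPM against 77.2, 143 and 306 (1.99 ± 0.12, adjusted p = 3.9e-13). In its list of 20 tested genes 7 were higher and none lower, and the 35% called was near the share of all tested genes. RB1, which that kinase inactivates, was at 128, 131 and 142 CPM against 9.7, 57.3 and 236 (1.27 ± 0.14), and HCC38 alone had a higher mean; without MDA-MB-436 RB1 was not called (0.82). CDKN2A, CDKN2B and MTAP, neighbours on chromosome 9, were present in HCC1395 at 17.7 to 21, 39.4 to 49.2 and 127 to 144 CPM. In HCC38 and MDA-MB-231 CDKN2A and CDKN2B were at 0 CPM, and MTAP was at 9.26 and 0.0566. CDKN2A was called higher (3.0 ± 0.24), yet was -1.75 against the lines of the same runs, 3 comparators having higher means. CDKN2B and MTAP were called higher too, and were 0.20 and 0.12, with no call, against the lines of the same runs. MYC was at 106, 111 and 111 CPM against 33.9, 99.2 and 257 and was not called (0.22 ± 0.14), and no gene of the MYC and MAX network, 11 tested, was.

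Of 26 BRCA1 and homologous recombination genes tested, 6 were higher (RAD51C, XRCC3, RAD51B, XRCC2, FANCA and RAD52) and none lower. The 23.1% called lay below the 34.1% of all tested genes. Against the RPMI 1640 lines 1 was higher and 1 lower. XRCC2, a homologous recombination factor, was at 129.6, 138 and 136 CPM against 26.4, 52.5 and 88.2 (1.32 ± 0.13, adjusted p = 6.9e-09), and XRCC3 at 62.4, 53.1 and 53.4 against 8.57, 20.7 and 46.9 (1.37 ± 0.13). Both lay above every other library, but XRCC3 was not called against the RPMI 1640 lines (0.52), nor were RAD51C (0.89) and RAD51B (0.37). BRCA1 was at 99.1, 119.6 and 122 CPM against 36.4, 62.5 and 152 and was not called (0.68 ± 0.12). In the BCL2 family HRK and BIK were higher and BID lower, of 16 tested; BIK lost its call without HCC1395 replicate 3 (1.24) and against the RPMI 1640 lines (1.19), and BID without HCC38 (-0.78) and against the lines of the same runs (-0.63). In the integrated stress response ASNS, PSAT1 and CHAC1 were higher and CEBPB, DDIT4 and PPP1R15A lower, of 17. CEBPB was at 11.5, 15.6 and 13.6 CPM against 38.2, 55.2 and 133, below every other library.

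Among 27 chromatin and DNA methylation genes, 7 were higher and 2 lower. The higher ones were CTCFL, UHRF1, ARID2, EZH2, DNMT1, HDAC2 and DNMT3A; against the RPMI 1640 lines alone, 4 members of the list were higher. UHRF1, which brings the methylase DNMT1 to replicating DNA, was at 177, 168 and 174 CPM against 15.8, 57 and 157 (0.67 and not called against the RPMI 1640 lines), and ARID2, a subunit of the PBAF remodelling complex, at 103, 112 and 136 against 20, 38.3 and 62.3 (1.61 ± 0.11, adjusted p = 2.2e-12). The 2 lower ones were the alternative ATPases of SWI/SNF remodelling complexes, SMARCA4 and SMARCA2. SMARCA4 was at 19.1, 21.1 and 23.1 CPM against 47.7, 98 and 158 (-2.19 ± 0.18, adjusted p = 1.3e-10), below every other library. Of 49 histone cluster genes tested, 28 were higher and 8 lower, but against the RPMI 1640 lines 7 were higher and 12 lower. HIST1H3C was at 0.474, 1.26 and 0.214 CPM against 76.8, 207 and 317 (adjusted p = 1.3e-12), and HIST1H2BB at 0.79, 2.14 and 1.71 against 26.5, 66.8 and 202. Histone genes are near copies of each other, so the split of reads between them is uncertain. Of 6 short nuclear RNA genes tested, SCARNA7 was higher and the long noncoding NEAT1 lower, at 159, 119.8 and 149 CPM against 80.8, 422 and 783, though not called against the RPMI 1640 lines (-0.63). SCARNA7 lay at the fold limit and was not called with any of several single libraries left out (0.90 without HCC1395 replicate 2). Clustered protocadherins, whose promoters are chosen cell by cell, were split: of 38 tested, 9 were higher and 16 lower. PCDHB5 was at 27.2, 29.4 and 33.4 CPM against 0.209, 1.43 and 82, where HCC38 was the only other line with more than a mean of 2.52.

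A few genes were all but absent from HCC1395 while every comparator line had at least 5 CPM. With at most 3 counts over the 3 HCC1395 libraries there were 3 such genes. SLFN12, a Schlafen ribonuclease at chr17:35411060-35433283, had 3 counts against a median line of 29.9 CPM, a ratio of 249.9 with an exact 95% Poisson interval of 85.5 to 1212 that covers counting error only. Its neighbours SLFN11, SLFN13 and SLFN12L were also called lower (-1.49, -2.94 and -3.85), and SLFN5, at -0.88, was not. P4HTM, a transmembrane prolyl hydroxylase at chr3:48989886-49007154, had 3 counts and a ratio of 86.6 (29.6 to 420.1). The 3 tested genes on each side of it were not called. MTATP6P1, a nuclear copy of a mitochondrial gene, had 1 count and can share reads with its parent. At up to 10 counts 17 genes qualified, among them COL4A1, COL4A2, CXCL8, GPX1, LTBR, PRDX2 and TXNIP, and with a minimum of 10 CPM in each line only SLFN12 did.

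**Figure D5:**
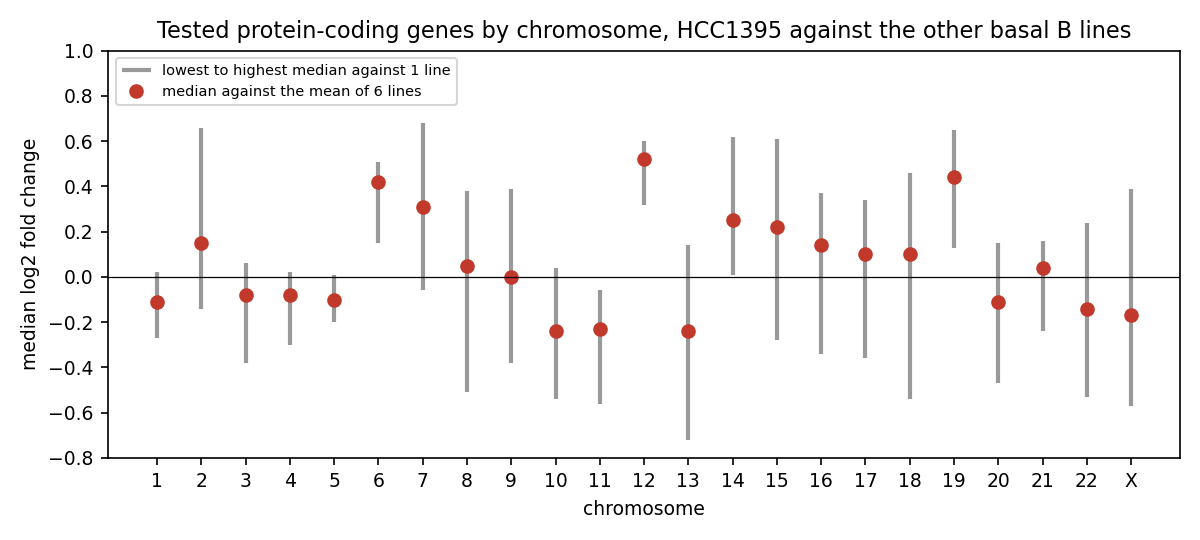
Median log2 difference of the tested protein-coding genes of each chromosome between HCC1395 and the mean of the 6 other lines (points), with the range of the medians against single lines (bars). Chromosomes 6, 12, 14 and 19 lie above 0 against every line, 14 by as little as 0.01, and chromosome 11 below 0 against every line.

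By chromosome, genes on 12, 19 and 6 were shifted up. The median was 0.52 over 766 genes of chromosome 12 (0.32 to 0.60 against single lines), 0.44 over 934 genes of chromosome 19 (0.13 to 0.65) and 0.42 over 698 genes of chromosome 6 (0.15 to 0.51), where it was 0.06 over all tested protein-coding genes. On chromosome 12, 25.5% of genes were higher, and on 19, 25.8%, against 13.6% of all tested protein-coding genes. The lowest medians were on chromosomes 10 and 13, both -0.24, and on 11, -0.23 (-0.56 to -0.06). HMGA2 lies on chromosome 12, TDRD12 on 19 and LIN28B on 6. In 488 windows of 5 Mb with at least 10 tested genes, the highest median was 1.62 at 40 to 45 Mb of chromosome 12, where 10 of 14 genes were higher and none lower. The next was 1.37 at 20 to 25 Mb of chromosome 9, which holds CDKN2A and ran from -1.64 to 4.20 against single lines. Next to each other on chromosome 19, the windows from 30 to 35 Mb, which holds TDRD12, and from 35 to 40 Mb had 21 of 29 and 61 of 90 genes higher, with medians of 1.31 and 1.29. Their lowest medians against a single line were -0.07 and -0.02. The lowest windows were at 110 to 115 Mb of X (-2.44), 70 to 75 Mb of chromosome 4 (-2.02), which holds CXCL8, EREG and AREG, and 45 to 50 Mb of chromosome 7 (-1.87), which holds IGFBP3. Against single lines their medians were -1.82 to -0.55, -1.19 to -0.50 and -2.19 to -0.42. For lists, chromosomes and windows alike, single-line medians use log2 CPM with a prior count of 2, and the others are fitted differences. At low counts the 2 measures differ, so a fitted median can lie outside the single-line range. DNA copy number was not analysed here, and its part in these shifts was not tested.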

How the data were processed

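RNA was measured in 45 libraries of 15 cell lines; 21 libraries of 7 lines were used. Per the labels' protocols, ScriptSeq v2 libraries were made from 1000 ng of RNeasy total RNA after Ribo-Zero Gold depletion. Per the submitters' processing notes, reads passed bcl2fastq 2.20.0.422, FastQC, MultiQC, Trimmomatic, STAR (GRCh38.p12) and featureCounts. Other versions, the strand setting, multi-mapping handling and annotation release: not given in the sources used here. Raw counts per gene were deposited by the authors.

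From these counts, edgeR 4.0.16 (R 4.3.3) gave TMM-scaled CPM (log2 with a prior count of 2), a filter (filterByExpr, minimum count 10, total 15; 18272 of 64485 genes) and a quasi-likelihood F test, two-sided, with 1 mean per line and HCC1395 minus the mean of 6 lines. The SE is the estimate divided by the square root of F; 14 residual degrees of freedom remain, and the coefficient of variation between replicates was 0.17. HCC1395 replicates differed beyond counting noise (chi-square per degree of freedom 3.76 to 8.21). Symbols, types and positions come from GENCODE 29 (90.4% of identifiers matched, and the rest held 0.0785% of counts). The steps were checked on simulated counts.

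The lines, the 43 gene lists and the rule for named genes were chosen with earlier results of these data known. Named are the 12 protein-coding genes with the widest gap on each side, up to 4 called members of each list with the largest difference, 22 genes that define a list, and genes nearly without reads; a few genes and 1 list are not reported here. Promoter windows (RefSeq) run from 250 bases before to 50 after a start. HCC1395 shares runs 3 to 5, and so replicate numbers, with 3 comparators per the labels. Between HCC1395 and same-run libraries, deviations from the line means had correlations of 0.155, 0.0574 and 0.273 for BT-549, -0.0162, 0.077 and 0.115 for MDA-MB-157, and -0.0651, 0.0509 and -0.135 for MDA-MB-436. Pairs from different runs had correlations of -0.267 to 0.161, a range that overlaps with these. Alternatives were DESeq2 1.42.0 (test and size factors), all 45 libraries, no filter, no minimum fold, the line as the unit, comparators of the same runs or of RPMI 1640, a run block, and each line and library left out.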

Additional observations from a re-analysis of the deposited data

How the results depend on the processing

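The numbers of genes higher and lower, 2690 and 3537, stayed within 1.5 times under most alternatives, and no called gene was called the opposite way with DESeq2 size factors (2367 and 3758), the DESeq2 test (2351 and 3896), no filter (3762 and 4602 of 53782 genes) or the run block. With no minimum fold 6224 genes were higher and 5236 lower, so the share of calls that were higher went from 43.2% to 54.3%. With the line as the unit 29 were higher and 4 lower (all 29 and 4 outside the range of the others). With fewer comparators than 6, more genes lie outside the range: 1689 above and 1696 below for the 3 lines of the same runs, 1691 and 1694 with the replicate block, and 2067 and 1867 for the 2 lines in RPMI 1640. Called the opposite way were 7 genes against the lines of the same runs (6 with the block), 12 against RPMI 1640 lines and 1 without MDA-MB-231. Leaving out single libraries gave 2564 to 2766 genes higher, 2753 to 3680 lower, 1019 to 1227 above the range and 873 to 1489 below it, the last without HCC1395 replicate 1. Genes nearly without reads numbered 17 at up to 10 counts and 1 at a minimum of 10 CPM. The run block over 21 libraries changed the call of 1 named gene, CIITA (-1.01), and none in the 3 lines of the same runs.

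A list or chromosome median is said to move when it shifts by more than 1 SD over the 6 lines; the cause was not tested. With the line as the unit medians became -4.64 (epithelial), -1.29 (mesenchymal), -2.81 (basal), -3.09 (luminal), 1.62 (cancer testis), -2.69 (HLA class I), -3.78 (HLA class II), 1.05 (HOX), -1.77 (integrins), -3.02 (proteases), -1.14 (TGF-beta), -0.88 (Wnt and Notch), -1.36 (receptor kinases) and -1.79 (protocadherins). Against the lines of the same runs they became -1.35 (mesenchymal), -1.26 (proteases) and -2.34 (endothelial), and with the replicate block -1.35 and -1.26 for the first 2. Against RPMI 1640 lines the glucose-sensing list turned from -0.61 to 0.26 and the glutamine and serine list from 0.37 to -0.09. There the others became -1.31 (luminal), 0.14 (complex I), -3.0 (interferon), -1.56 (NF-kB), 0.07 (replication), -1.76 (proteases), -0.83 (receptor kinases), -1.16 (ligands), 0.01 (histones), -1.32 (blood) and -0.80 (endothelial). Leaving out MDA-MB-436 gave -0.59 (TGF-beta) and -1.05 (receptor kinases), MDA-MB-157 -1.35 (receptor kinases) and -1.24 (ligands), and HCC38 -1.31 (receptor kinases) and -2.43 (endothelial). Leaving out single libraries gave -2.23 to -1.59 (luminal), -1.79 to -1.26 (ligands) and -2.38 to -1.35 (endothelial). With a minimum fold and libraries as the unit, counts of called members that moved by over 1.5 times and are not in the report were as follows. The DESeq2 test gave 4 HLA class II and 3 metallothionein genes lower, and no filter 5 TGF-beta genes higher. Against the lines of the same runs 4 epithelial genes, 4 proteases and 1 receptor kinase were higher, and 6 epithelial (5 with the replicate block), 2 cholesterol and 5 endothelial genes lower. Against RPMI 1640 lines 3 epithelial, 2 TCA, 5 TGF-beta and 3 cholesterol genes, 4 proteases and 1 integrin were higher, and 5 HOX, 2 TCA, 6 cholesterol, 3 metallothionein, 1 blood, 1 endothelial and 1 chromatin gene lower; 22 epithelial genes were lower there. Leaving out HCC38 gave 3 epithelial, 2 mesenchymal and 2 stress response genes higher, and 5 stress response and 5 endothelial genes lower. Leaving out Hs578T gave 5 proteases and 3 cholesterol genes higher and 5 B lymphocyte genes lower; MDA-MB-157, 1 glutamine and 1 stress response gene higher and 3 metallothionein genes lower; MDA-MB-231, 2 mesenchymal genes, 5 proteases and 1 stress response gene higher and 2 cholesterol genes lower; and BT-549, 2 cholesterol genes lower. With no minimum fold the counts of many lists rose; the homologous recombination, RB1 and replication lists had 20, 17 and 21 higher. With genes of at least 10 CPM alone, chromosomes 1, 3, 4, 5 and 12 had medians of 0.07, 0.07, 0.14, 0.06 and 0.66, and chromosome 5 changed sign.

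Of 174 named genes called, 42 lost their call under some alternative other than the line as the unit, 12 of them with a single library left out, and 161 with the line as the unit. Among single genes, the difference changed sign against RPMI 1640 lines for ARRDC4 (0.56), MYC (-0.08) and S100A3 (0.58). It did so against the lines of the same runs for CDKN2A (-1.75, and -1.75 with the replicate block). With the line as the unit CDKN2A (-1.09) and HLA-DRB1 (-1.12) did. Without HCC38 IGF2BP3 (-0.03), KRT5 (0.62) and ZEB1 (-0.08) did, and without MDA-MB-157 MYC (-0.06). KRT5 ran from -0.66 to 0.29 with single libraries left out. Genes with few counts in HCC1395 limit the precision of the folds below the other lines.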

Other observations

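Some of the genes all but missing from HCC1395 were also low in HCC1187, a line outside basal B that was not among the 6 comparators. Its mean was 0.883 CPM for S100A6, 0.994 for COL4A1, 1.28 for COL4A2, 0.178 for SLFN12, 0.287 for GPX1, 0 for HIST1H3C, 0.35 for HIST1H2BB and 0.0641 for MT1E. For TXNIP it was 5.89, for IFI16 10.7 and for EPAS1 7.55 CPM. Other genes low in HCC1395 were abundant there, LTBR at 132, PRDX2 at 116, UBE2E1 at 125 and IGFBP3 at 756 CPM. HCC1187 also had 386 CPM of TDRD12, but 0 of DPEP3, 0.573 of LIN28B and 0.242 of PASD1, and it had 59.8 CPM of CDH1. Other lines outside basal B were about as low as HCC1187 for several of its low genes. SLFN12 was at 0.312 CPM in HCC70, HIST1H2BB at 0.204 in BT-20 and MT1E at 0 in MDA-MB-453. For S100A6 and GPX1 the next lowest means outside basal B were 7.12 CPM (MDA-MB-453) and 46 CPM (MDA-MB-468). The genes were picked for their values, so this is a description.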
